A study of Mus musculus with 6 samples.

Results

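The 10 spliced non-coding genes that carry small nucleolar RNAs (snoRNAs) in their introns and were followed in mouse ovarian granulosa cells are Gas5, Zfas1, Snhg1, Snhg3, Snhg4, Snhg5, Snhg6, Snhg8, Snhg12 and Epb41l4aos. They were 10 of the 55487 genes in the count files and were chosen by symbol, with results of these data known. Only Snhg4 stood for 2 identifiers, of which 1 was selected on its larger total count over all libraries. The 6 libraries, titled as granulosa cells, were 3 controls given phosphate-buffered saline (PBS) and 3 exposed to cetylpyridinium chloride (CPC), a quaternary ammonium antiseptic used in mouthwashes. All 6 carry the genotype label WT. The labels used here name no strain, age, dose or exposure time, and do not say whether the antiseptic reached living animals or a culture dish. The same labels also name SKOV3, a human ovarian cancer line, and transfection of GATA4, while the files hold mouse genes. Whether the replicates are separate animals or dishes is not stated either, so a p-value here reads the spread of 3 libraries a group, which could be technical.

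A snoRNA host gene is transcribed and spliced like a messenger RNA gene. The introns are trimmed to snoRNAs, which guide the chemical modification of ribosomal RNA, and the exons are joined into a spliced RNA with little coding capacity. Many host RNAs begin with a terminal oligopyrimidine (TOP) tract, the sequence with which ribosomal protein messenger RNAs also start. The spliced RNA of Gas5 in particular is bound by ribosomes and degraded by nonsense-mediated decay (NMD) when translated, so that it accumulates when translation or growth stops, which gave it the name growth arrest specific.

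The files' coordinates, on GRCm38.p6 per their headers, placed 35 genes of snoRNA type inside the 10 hosts at 33 separate loci. Among them, 1, in Snhg4, carries the microRNA name Mir1949 but is typed as a snoRNA gene in the files. All 35 lay on the strand of the host and in an intron of at least 1 GENCODE M21 transcript. Gas5 (chromosome 1, 161034422 to 161038539) held 10, Snhg1 (chromosome 19, 8723475 to 8726443) held 8 and Snhg12 (chromosome 4, 132308623 to 132311024) held 5. Zfas1 (chromosome 2, 167062934 to 167065862) held 3. Snhg3 (chromosome 4, 132348014 to 132353686), Snhg4 (chromosome 18, 35553371 to 35558316) and Snhg5 (chromosome 9, 88495268 to 88523562) held 2 each. Snhg6 (chromosome 1, 9941959 to 9944118), Snhg8 (chromosome 3, 123507552 to 123508404) and Epb41l4aos (chromosome 18, 33794892 to 33795986) held 1 each.

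**Figure D1:**
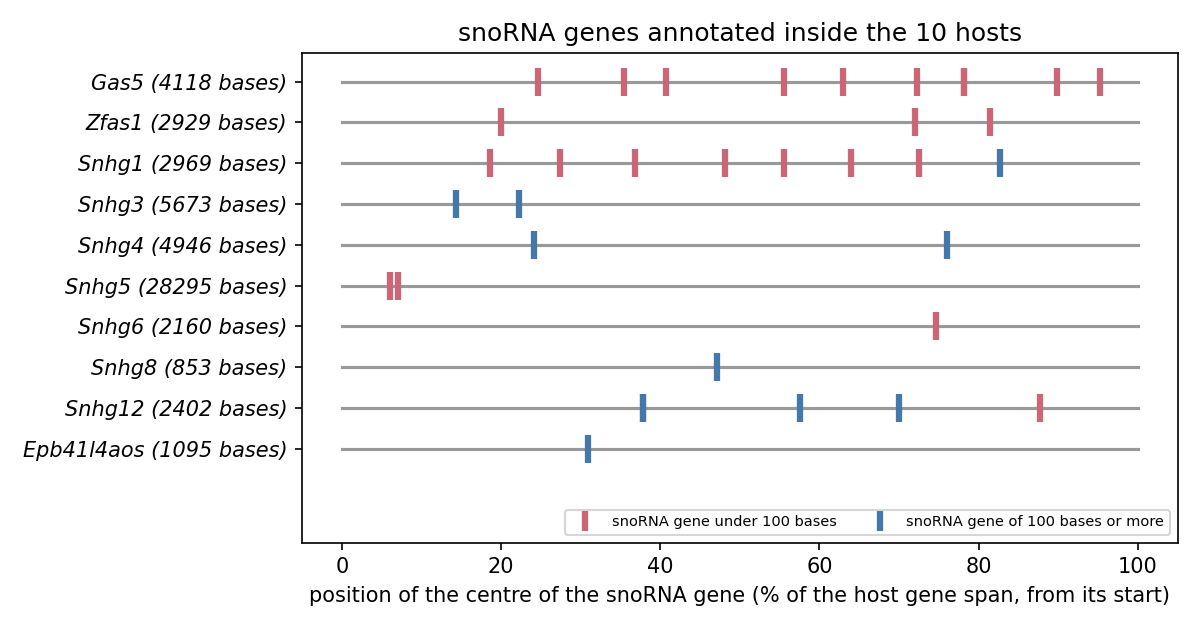
Each grey line is the span of 1 host gene, drawn from its start to its end and scaled to 100%, and each mark is the centre of an annotated snoRNA gene. Gas5 and Snhg1 carry chains of mostly short snoRNA genes, while Snhg3, Snhg8 and most of Snhg12 carry longer ones.

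The snoRNAs below are annotated transcripts inside the hosts whose values are described next. They are GENCODE M21 sequences on GRCm38, read 5′ to 3′. Capitals mark TGATGA in the first 16 bases and CTGA in the last 14 bases, letters of boxes C and D of methylation guides. They also mark ACA 3 bases before the end of an RNA over 100 bases. Those letters belong to the H/ACA class of snoRNAs, which includes the pseudouridylation guides. Of 1507 annotated snoRNA transcripts 20.9% held the first, 30.5% the second and 17% the last in those windows, as did 16, 24 and 7 of the 35 in these hosts.
Gas5, Snord47 (chr1:161038082-161038158, plus strand): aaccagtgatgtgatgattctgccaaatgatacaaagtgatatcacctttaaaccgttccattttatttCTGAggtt
Gas5, Snord80 (chr1:161037601-161037681, plus strand): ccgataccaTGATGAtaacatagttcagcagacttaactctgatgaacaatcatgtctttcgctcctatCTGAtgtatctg
Zfas1, Snord12 (chr2:167065276-167065365, plus strand): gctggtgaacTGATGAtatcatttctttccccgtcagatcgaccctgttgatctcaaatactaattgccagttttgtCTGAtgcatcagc
Snhg5, Snord50a (chr9:88521529-88521600, minus strand): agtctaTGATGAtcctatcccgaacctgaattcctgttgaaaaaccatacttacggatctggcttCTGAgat
Snhg12, Snord99 (chr4:132310691-132310764, plus strand): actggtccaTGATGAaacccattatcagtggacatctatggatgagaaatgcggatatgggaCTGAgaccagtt
Snhg12, Snora61 (chr4:132310240-132310369, plus strand): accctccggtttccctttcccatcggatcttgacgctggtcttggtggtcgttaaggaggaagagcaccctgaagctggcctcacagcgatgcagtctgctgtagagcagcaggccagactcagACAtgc
Snhg3, Snora73b (chr4:132352322-132352526, minus strand): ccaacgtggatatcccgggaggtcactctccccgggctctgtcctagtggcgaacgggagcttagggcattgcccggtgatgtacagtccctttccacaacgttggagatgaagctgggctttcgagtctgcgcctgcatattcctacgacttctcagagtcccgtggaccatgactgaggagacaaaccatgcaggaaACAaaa
The 2 snoRNAs of Snhg5, Snord50a and Snord50b, are 72 bases long and differ at 1 base.

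The counts lay on the host genes and hardly on the snoRNA genes. With 1 count per gene, spliced and unspliced host RNA cannot be told apart. Of the 35 snoRNA genes 30 had 0 counts in all 6 libraries. The zeros are a count per annotated gene, and the sources used here do not say what fragment sizes the libraries kept. Total counts per library were 19079345 to 23157541, and the 35 snoRNA genes together had 12 to 33 counts per library. The host RNAs of Gas5 had 1013 to 4128 counts per library, and the lowest count of a member was 48, for Epb41l4aos in control 1. All 10 members passed the low-count filter.

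Of the 10 hosts 9 were higher and 1, Snhg3, was lower in CPC (edgeR quasi-likelihood test, Benjamini-Hochberg adjusted p under 0.05 over 15000 genes). Of all tested genes 19.6% were called higher and 19.7% lower, 39.3% in either direction. With the replicate number as a block the members' counts were the same, against 26.5% of tested genes higher and 27.9% lower. Since the members were chosen with results known, the count describes them and supports nothing by itself. The median log2 change of the 10 was 1.53, against 0 for all tested genes. For all 10 the control and CPC libraries did not overlap, as for 53.5% of tested genes (26.7% with CPC higher). Summed over the 10 hosts, the level was 120 to 161 CPM (counts divided by library size, with TMM scaling factors, on the usual CPM scale) in control and 366 to 444 CPM in CPC. Without Gas5 the sum was 74.2 to 91.2 CPM in control and 208 to 260 CPM in CPC. In bulk RNA, fewer cells of a type and less RNA per cell cannot be told apart.

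Cell type markers moved between the same groups. Leukocyte markers summed to 197 to 334 CPM in control and 13.9 to 36 CPM in CPC, with 10 of 11 tested members lower. Granulosa markers summed to 7250 to 8060 CPM in control and 4290 to 6020 CPM in CPC, with 6 of 9 lower. Of all tested genes 19.7% were called lower. Of the granulosa markers Inha had 19494 to 44757 counts per library, Fshr 25 to 80 and Cyp19a1 8 to 29. Amh had 0 to 3 and was below the filter. Cyp19a1 had a log2 change of 0.90 and was not called (edgeR adjusted p = 0.122). The fall of Inha (edgeR adjusted p = 0.0397) was lost without any 1 library but CPC 3, and without replicate 1 or 2 of both groups. Oocyte markers summed to at most 4.67 CPM, erythroid markers to at most 0.14 CPM and endothelial markers to at most 4.96 CPM. Theca and stroma markers summed to 252 to 886 CPM and surface epithelium markers to 92.6 to 410 CPM, with none called in either direction by edgeR (0 at an unadjusted p under 0.05 and 0 by DESeq2, and 1 and 3 lower with the replicate block), and the theca gene Cyp17a1 at 0 counts. Gata4, whose product the labels say was transfected, had 5489, 7276 and 5548 counts in the controls against 5643, 5159 and 5781 after CPC. The part of these cell type differences in the host gene changes was not tested.

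**Figure D2:**
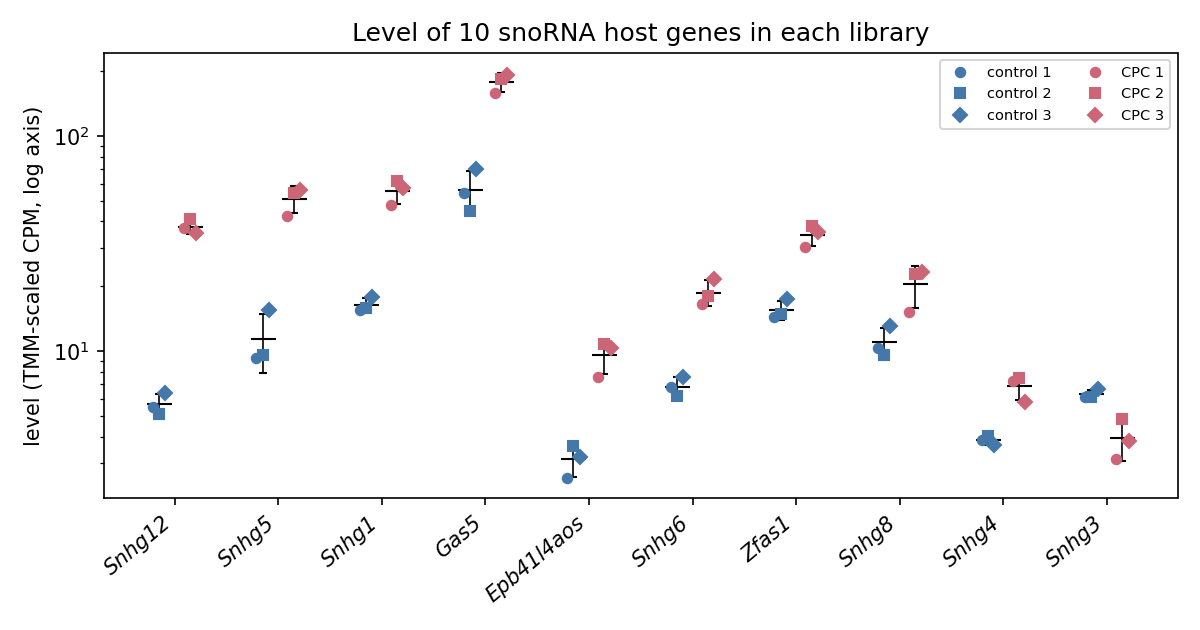
Level of each host gene in each library in TMM-scaled CPM on a log axis, with control in blue and CPC in red, symbols for replicate numbers, and black bars for the mean and SD of 3 libraries. The genes stand in order of their change, and the red points lie above the blue ones for the first 9 genes and below them for Snhg3.

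Gas5, the best known of the hosts and a binder of the glucocorticoid receptor in human cells, was the most abundant. Its level was 54.1, 44.9 and 69.9 CPM in control 1 to 3 and 159, 184 and 192 CPM in CPC 1 to 3. Every CPC library lay above the highest control, which was control 3. Gas5 thus rose 3.17-fold, from 56.3 ± 12.6 to 178 ± 17.6 CPM (SD over n = 3; a log2 change of 1.66 ± 0.17, standard error; edgeR adjusted p = 0.000784).

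Snhg12 had the largest change of the 10. Its level was 5.50, 5.10 and 6.35 CPM in control and 37.2, 41.1 and 35.2 CPM in CPC. The controls lay close together and far below all CPC libraries. The rise was 6.69-fold (log2 change 2.74 ± 0.12, standard error; edgeR adjusted p = 8.55e-05), and 0.36% of tested genes had a larger log2 change.

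Snhg5 was next. Its control levels were 9.23, 9.60 and 15.5 CPM, with control 3 above the other two, and its CPC levels were 42.6, 54.5 and 55.8 CPM. It rose 4.45-fold (log2 change 2.15 ± 0.22, standard error; edgeR adjusted p = 0.000874). Without control 3 and CPC 3 the log2 change was 2.37.

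Snhg1 had 15.5, 15.8 and 17.9 CPM in control and 47.6, 61.7 and 57.1 CPM in CPC, and rose 3.38-fold (edgeR adjusted p = 0.000209). CPC 1 was the lowest of its CPC libraries and still far above the controls. Zfas1, the antisense neighbour of Znfx1, had 14.4, 14.8 and 17.4 CPM in control and 30.4, 38.3 and 35.9 CPM in CPC, a 2.25-fold rise (edgeR adjusted p = 0.000749). Snhg6 had 6.78, 6.15 and 7.57 CPM in control and 16.6, 18 and 21.6 CPM in CPC, a 2.74-fold rise (edgeR adjusted p = 0.000694). In each of these 3 genes control 3 was the highest control and CPC 1 the lowest CPC library.

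Epb41l4aos, named for lying on the strand opposite Epb41l4a, was among the least abundant hosts. It had 2.56, 3.62 and 3.20 CPM in control and 7.58, 10.8 and 10.3 CPM in CPC, a 3.04-fold rise on 48 to 221 counts per library (edgeR adjusted p = 0.00171).

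Snhg8 and Snhg4 rose least. Snhg8 had 10.3, 9.55 and 13.1 CPM in control and 15.2, 22.9 and 23.2 CPM in CPC, so that CPC 1 lay nearer to control 3 than to the other CPC libraries. The rise was 1.86-fold (log2 change 0.90 ± 0.20, standard error; edgeR adjusted p = 0.0118). Leaving out replicate 2 of both groups ended the call (edgeR adjusted p = 0.102). Snhg4 had 3.84, 4.01 and 3.67 CPM in control and 7.28, 7.47 and 5.78 CPM in CPC, a 1.78-fold rise (edgeR adjusted p = 0.00916). That call was lost without replicate 1 or replicate 2 of both groups (edgeR adjusted p = 0.109 and 0.0599). The other Snhg4 identifier, annotated as protein-coding and overlapping it by 4913 bases, had 0 to 4 counts per library and was not tested.

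Snhg3 went the other way. It had 115, 140 and 141 counts in control and 73, 96 and 82 counts in CPC, or 6.14, 6.11 and 6.63 CPM against 3.13, 4.82 and 3.82 CPM. The controls lay within a narrow range and all CPC libraries below it. The level was 1.61-fold lower in CPC (log2 change -0.68 ± 0.20, standard error; edgeR adjusted p = 0.0326). That call was lost without any 1 library but CPC 2 (edgeR adjusted p up to 0.0979) and without any replicate number of both groups (0.0528 to 0.201), and it held with the replicate number as a block (edgeR adjusted p = 0.00965). Snora73b lies inside an intron of Snhg3 and also within the overlapping gene Rcc1 on the same strand, so it cannot be assigned to Snhg3 alone. Snora73b had 6, 3 and 6 counts in the controls against 10, 12 and 17 after CPC. Every CPC library was above every control, as for 26.7% of tested genes, but Snora73b was below the low-count filter and not tested.

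**Figure D3:**
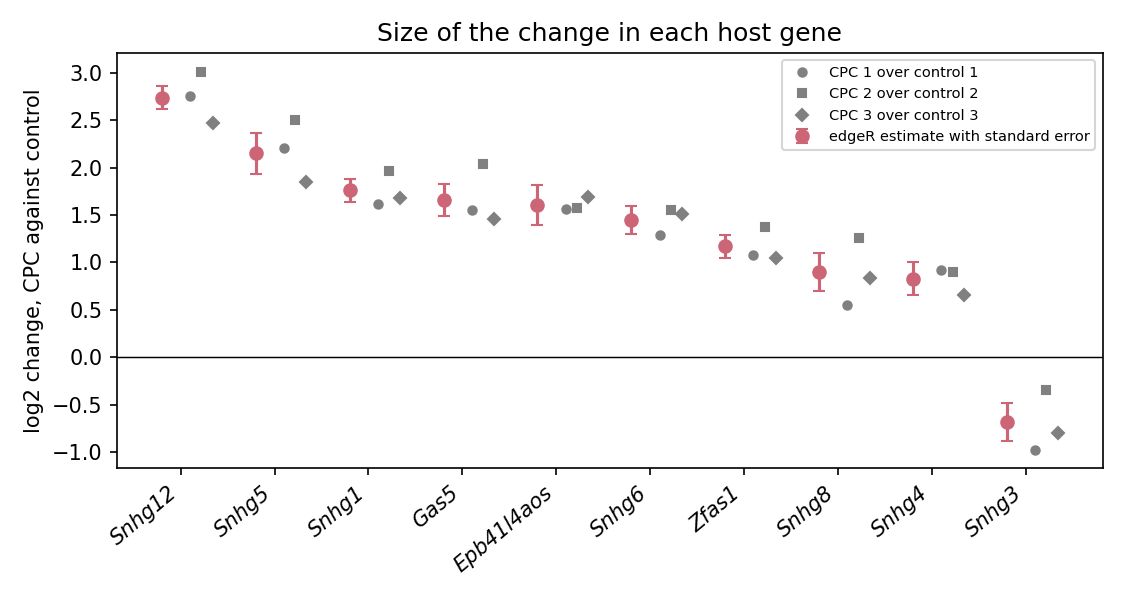
Log2 change of each host gene in CPC against control. Red points are the edgeR estimates with their standard errors, and grey symbols are the ratios of libraries with the same replicate number. The estimates run from 2.74 for Snhg12 to -0.68 for Snhg3, and every grey symbol lies on the side of 0 of its red point.

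The ratio of CPC to control within each replicate number kept the order of the genes in part. For Snhg12 CPC over control was 6.76-fold, 8.06-fold and 5.55-fold for numbers 1 to 3, and for Snhg5 it was 4.62-fold, 5.68-fold and 3.60-fold. The lowest ratio of Snhg12 was below the highest of Snhg5 but above the highest of Gas5, which was 4.1-fold, and of Snhg1, which was 3.91-fold. Number 2 gave the highest ratio for all hosts but Snhg4 and Epb41l4aos, among them Gas5, Zfas1, Snhg1, Snhg5, Snhg6, Snhg8 and Snhg12. Among controls, control 3 was the highest library for 8 of the 10 members and control 2 for the other 2. Among CPC libraries CPC 1 was the lowest for 8 of the 10.

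Set per kilobase of exon (RPKM, from the exon lengths in the files), Gas5 stood far above the other hosts in both groups. It had 131 ± 29.4 RPKM in control and 415 ± 40.8 RPKM in CPC (SD, n = 3). The deposited lengths are short for some genes, with 357 bases for the protein-coding gene Hspa8, 201 for Cyp19a1 and 332 for Snhg3. They may not cover the full exons, and the order and shares below depend on them. In control it was followed by Snhg1 at 27.1, Snhg8 at 24.5, Zfas1 at 21.0 and Snhg3 at 19 mean RPKM, neighbours whose ranges over libraries overlapped. Below them came Snhg6 at 14.4 mean RPKM, clear of its neighbours, then Snhg5 at 7.73, Epb41l4aos at 7.27 and Snhg12 at 6.31, whose ranges overlapped, and Snhg4 at 3.23. In CPC Gas5 was followed by Snhg1 at 91.7 mean RPKM, clear of its neighbours. Then came Zfas1 at 47.2, Snhg8 at 45.6, Snhg12 at 42.2, Snhg6 at 39.6 and Snhg5 at 34.4 mean RPKM, neighbours whose ranges overlapped. Epb41l4aos at 22.2, Snhg3 at 11.8 and Snhg4 at 5.75 mean RPKM closed the order without overlap. Snhg12 thus moved from the ninth to the fifth place and Snhg3 from the fifth to the ninth.

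As a share of the summed host RNA, Gas5 was 45.9% to 52.6% of the members' summed RPKM in control libraries and 53.5% to 55.8% in CPC libraries. Snhg12 was 2.29% to 2.51% in control and 4.88% to 6.28% in CPC. Snhg3 was 6.47% to 8.1% in control and 1.42% to 1.81% in CPC.

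Snhg12 and Snhg3 lie 36989 bases apart on chromosome 4, on opposite strands, and changed in opposite directions. Snhg3 overlaps Rcc1, the gene of the nucleotide exchange factor of Ran, over 5592 bases on the same strand, and their annotated starts are 81 bases apart. Rcc1 had 23.4 ± 3.08 CPM in the controls against 28.9 ± 2.06 CPM after CPC (SD over n = 3; adjusted p by edgeR = 0.0765, and 0.0173 with the replicate block). Because the sources do not say how shared reads were assigned, the counts of Snhg3 and Rcc1 are uncertain.

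Gas5, Zfas1 and Snhg1 start within 1000 bases of a gene on the opposite strand. Slc3a2, the heavy chain of amino acid transporters, starts 106 bases from Snhg1 and rose 1.43-fold, from 426 ± 45.1 to 609 ± 39.8 CPM (SD over n = 3; adjusted p by edgeR = 0.00883), less than the 3.38-fold of Snhg1. Zbtb37, a zinc finger gene beside Gas5 that overlaps it by 428 bases, had 52.7 ± 6.57 CPM in the controls against 67.3 ± 8.31 CPM after CPC (edgeR adjusted p = 0.0576, and 0.0111 with the replicate block). Znfx1, beside Zfas1 with an overlap of 82 bases, had 59.8 ± 2.80 CPM in the controls against 53.4 ± 3.36 CPM after CPC (edgeR adjusted p = 0.142). The counts of overlapping opposite genes cannot be separated where counting ignored strand, which the sources do not state. Mcmdc2, which overlaps Snhg6, and Gm17300, which overlaps Snhg3, had at most 12 counts per library.

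RefSeq promoter sequences on GRCm38.p6 were at hand for 7 of the 10 hosts. They are shown because TOP tracts at the start are the feature that hosts are known to share with ribosomal protein genes. Each line runs from 15 bases before the annotated start to 29 after it. Capitals mark a C followed by at least 4 further C or T that begins within 5 bases of the annotated start. Gas5 has 2 annotated starts.
Gas5, upstream start (chr1:161034586-161034630, plus strand): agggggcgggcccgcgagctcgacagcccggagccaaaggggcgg
Gas5, downstream start (chr1:161035151-161035195, plus strand): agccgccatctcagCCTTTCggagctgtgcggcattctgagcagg
Zfas1 (chr2:167062919-167062963, plus strand): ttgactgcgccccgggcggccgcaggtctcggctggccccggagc
Snhg8 (chr3:123508307-123508351, minus strand): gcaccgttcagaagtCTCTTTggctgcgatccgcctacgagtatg
Snhg12 (chr4:132308663-132308707, plus strand): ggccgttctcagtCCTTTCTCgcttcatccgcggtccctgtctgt
Snhg3 (chr4:132353657-132353701, minus strand): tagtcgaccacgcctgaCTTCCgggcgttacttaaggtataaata
Snhg5 (chr9:88522868-88522912, minus strand): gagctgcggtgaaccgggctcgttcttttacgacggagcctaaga
Snhg1 (chr19:8723472-8723516, plus strand): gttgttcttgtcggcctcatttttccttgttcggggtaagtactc
Such a run was present at 4 of these 8 starts, against 18.3% of all 32851 RefSeq starts, 19.8% of the starts of tested genes and 44.8% of 67 starts of ribosomal protein genes. It was present in Snhg3, which fell, as well as in Snhg8, Snhg12 and the downstream start of Gas5, which rose. It was absent at the upstream start of Gas5 and in Zfas1, Snhg1 and Snhg5, which also rose. RefSeq starts need not be those of the counted genes. The downstream Gas5 start, at 161035166, lies inside the counted span that begins at 161034422. From 250 bases before to 50 after the start, searched on both strands, neither CACGTG nor TGATGNAA was found at any of the 8 starts, against 7.2% and 4% of all starts and 9.8% and 2.2% of the 13728 starts of tested genes. TGACG was found at 3 of the 8 (20.8% of all starts and 30.1% of those of tested genes), CCAAT at 3 (37.4% and 37.5%) and TATAAA at 4 (13.6% and 7.2%). A match is a run of letters and not a shown binding site.

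Non-coding hosts outside the list were mixed. By coordinates 14 further non-coding genes enclosed a named snoRNA or small Cajal body RNA gene on their strand, of which 11 were tested, 4 were higher in CPC and 0 lower (edgeR; 0 lower at an unadjusted p under 0.05 and 0 by DESeq2, 1 with the replicate block, Snhg18). The median log2 change of the 11 was 0.54. Of the 11, 36.4% were higher and 0% lower, against 19.6% and 19.7% of all tested genes. The share called in either direction was near the 39.3% of all tested genes. Named means a symbol beginning with Snord, Snora or Scarna, as for 149 of the 1558 genes of snoRNA or scaRNA type. Hosts of the other snoRNA genes alone are therefore missing, and Epb41l4aos, which holds only Gm23639, would not have met this rule. Among 792 tested genes of lincRNA, processed transcript and antisense type, the 10 members included, 11% were called higher and 16.3% lower, with a median of -0.11. The 4 that rose were 2410006H16Rik, which encloses Snord49a, Snord49b and Snord65, Snhg16, which encloses the Snord1 genes, Snhg15 and 1110038B12Rik. 2410006H16Rik had 26.3 ± 5.21 CPM in the controls against 122 ± 7.07 CPM after CPC, a 4.62-fold rise (SD over n = 3; adjusted p by edgeR = 0.000205). Snhg16 rose 4.2-fold, Snhg15 3.18-fold and 1110038B12Rik 2.44-fold.

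Of the 12 further genes named Snhg with a number, or known hosts without such a name (Dancr and both RIKEN genes), 10 were tested. Of these 5 rose (50%, against 19.6% of all tested genes), the fifth being Snhg17 at 1.93-fold. Snhg18, a single-snoRNA host, had 29.2 ± 5.10 CPM in the controls against 22.8 ± 3.91 CPM after CPC (SD over n = 3; adjusted p by edgeR = 0.125, and 0.00587 with the replicate block). Snhg14, the host of the imprinted Snord116 cluster, had 10.1 ± 2.06 and 10.7 ± 2.53 CPM (edgeR adjusted p = 0.786). Snhg20 had 6.24 ± 1.85 and 6.98 ± 0.854 CPM (edgeR adjusted p = 0.614) and Snhg11 had 3.86 ± 1.69 and 4.35 ± 1.40 CPM (edgeR adjusted p = 0.767). Dancr had 6.96 ± 1.23 CPM in the controls against 10.1 ± 3.67 CPM after CPC, with overlapping libraries (edgeR adjusted p = 0.153, and 0.0144 with the replicate block).

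Protein-coding hosts had smaller changes. Of 73 protein-coding genes that enclose a named snoRNA gene on their strand 68 were tested. In CPC 36 were higher (52.9%) and 3 lower (4.41%) by edgeR, against 19.6% and 19.7% of all tested genes. The median log2 change of the 68 was 0.38. The 73 include Rcc1 and the other Snhg4 identifier, whose enclosed snoRNA genes also lie inside the members Snhg3 and Snhg4. Without replicate 1 or replicate 2 of both groups 19 and 20 were higher. By DESeq2 5 were lower, and with the replicate block 6. Rpl12, the host of Snora65, rose 2.13-fold and 2410002F23Rik, the host of Snord88a and Snord88c, rose 2.11-fold. Gnl3, which encodes nucleostemin and encloses Snord19 and Snord69, rose from 76.4 ± 5.83 to 138 ± 5.09 CPM (SD, n = 3), and Rpl32, the host of Snora7a, rose 1.7-fold. The 3 lower genes were Hspa8, the constitutive HSP70 and host of Snord14 genes, at 2.41-fold, the condensin gene Ncapd2 at 1.7-fold and Zbed3 at 1.32-fold. Zbed3 lost its call without control 2, any CPC library, or replicate 1 or 2 of both groups. Of the 68 tested, 23 were cytosolic ribosomal protein genes. Among the other 45, 15 were higher and 3 lower.

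**Figure D4:**
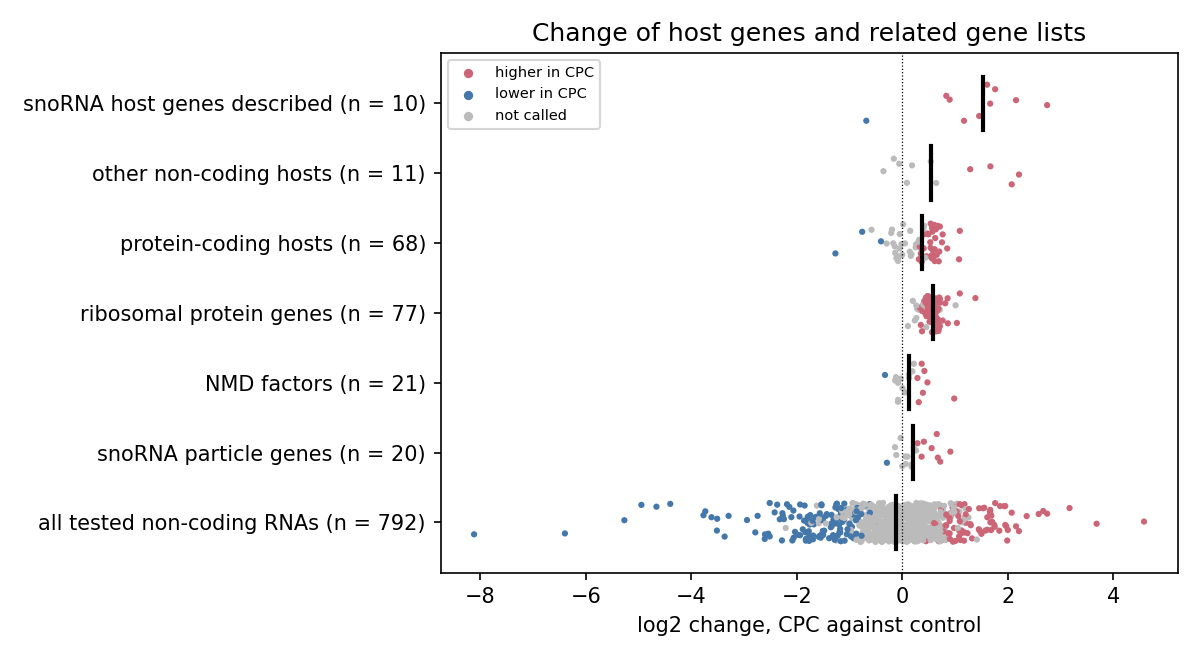
Log2 change in CPC against control of each tested gene in 7 gene lists, 1 point a gene, with red for genes called higher, blue for genes called lower and grey for genes not called, and a black bar for the median of the list. The bar of the 10 hosts stands at 1.53, that of ribosomal protein genes at 0.57 and that of all tested non-coding RNAs, which include the 10, at -0.11.

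Cytosolic ribosomal protein genes, the classical TOP genes, rose in the same libraries by less per gene. Of 77 tested 63 were higher and 0 lower (edgeR; 0 lower at an unadjusted p under 0.05 and 0 by DESeq2), with a median log2 change of 0.57. Of all tested genes 19.6% were higher and 19.7% lower. Leaving out control 1 gave 40 higher ribosomal protein genes, and leaving out replicate 1 or 2 of both groups gave 34 and 24. Rpl12 rose from 283 ± 36.6 to 602 ± 54.4 CPM (SD over n = 3; adjusted p by edgeR = 0.000968), Rpl34 1.81-fold, Rpl28 1.64-fold and Rps12 1.61-fold. Their counts are uncertain where processed pseudogenes share their sequence. Of 15 other translation genes with TOP tracts 9 rose and 1, Hnrnpa1, fell (1.48-fold). Pabpc1, the poly(A)-binding protein gene, rose 1.71-fold, Npm1, the nucleolar chaperone gene, 1.4-fold, Eif3f 1.43-fold and Eef1g 1.34-fold. Rises there numbered 5 without CPC 2, control 1 or control 2, and 2 and 4 without replicate 1 or 2 of both groups, and the fall of Hnrnpa1 was lost without CPC 1, CPC 3, control 1 or control 2, without replicate 1 or 2 of both groups and with library size scaling.

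NMD is the pathway that degrades translated host RNAs. Of 21 tested factors 7 were higher (33.3%) and 1, the release factor gene Gspt1, lower (4.76%; 1.26-fold), against 19.6% and 19.7% of all tested genes. The median log2 change of the 21 was 0.13. Not called were 13 of the 21, so the share called in either direction was near the 39.3% of all tested genes. Rnps1, an exon junction protein gene, rose from 30.8 ± 1.13 to 60.8 ± 3.39 CPM (SD over n = 3; adjusted p by edgeR = 0.000338). Nbas rose 1.39-fold and Etf1, the other release factor gene, 1.29-fold. Without replicate 1 or 2 of both groups 1 and 3 factors were higher, and without replicate 1 of both 0 were lower. Of 8 protein-coding genes whose transcripts are reported as NMD targets, several of them also induced by stress, 6 rose and 0 fell (edgeR; 0 at an unadjusted p under 0.05 and 0 by DESeq2), with a median log2 change of 1.35. They include the stress factor genes Ddit3 at 10.6-fold, Gadd45a at 3.77-fold and Atf4 at 1.76-fold and the cystine transporter gene Slc7a11 at 3.68-fold. The pair not called were Gadd45b, with 43 ± 2.53 CPM in control and 52.5 ± 13.4 CPM in CPC, and the kinase gene Map3k14, with 6.04 ± 0.558 and 5.42 ± 1.21 CPM.

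Of 20 genes for proteins that assemble snoRNAs into particles 8 were higher (40%) and 1, Nop10, lower (5%, 1.23-fold). Of all tested genes 19.6% were higher and 19.7% lower. The median log2 change of the 20 was 0.19. Called in either direction were 9 of the 20, near the 39.3% of all tested genes. Tcof1, the nucleolar gene mutated in human Treacher Collins syndrome, rose from 32.7 ± 1.21 to 53.8 ± 1.66 CPM (SD over n = 3; adjusted p by edgeR = 0.00069), and Nufip1, an assembly factor gene, rose 1.88-fold. Dkc1, the pseudouridine synthase gene, rose 1.59-fold and its partner Gar1 1.57-fold. Rises numbered 5 without replicate 2 or replicate 3 of both groups. The fall of Nop10 was lost without CPC 1, CPC 2, control 1 or control 3, without replicate 1 or 2 of both groups and with library size scaling.

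Of 18 genes that set the rate of translation 5 rose (27.8%) and 2 fell (11.1%), against 19.6% and 19.7% of all tested genes, with a median log2 change of 0.12. Called in either direction were 7 of the 18, near the 39.3% of all tested genes. Ppp1r15a, the eIF2alpha phosphatase subunit GADD34, rose from 71.5 ± 10.0 to 304 ± 30.9 CPM (SD over n = 3; adjusted p by edgeR = 0.000199). Eif4ebp1, the inhibitor of cap-dependent initiation, rose 1.96-fold, Eif2b3, a subunit gene of the eIF2 exchange factor, 1.75-fold and Myc 1.53-fold. Eif4ebp2 was 1.41-fold and the kinase gene Eif2ak2 1.51-fold lower, the latter not called without replicate 2 of both groups. With the replicate block or with library size scaling 8 rose.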

How the data were processed

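RNA from 6 libraries was sequenced, 3 control and 3 CPC, grouped and numbered by their titles. The authors deposited 1 whole-number count per gene with symbol, type, exon length and GRCm38.p6 location, per the file headers. Per the submitters' processing notes the tools were Bowtie2 and RSEM on hg19, a human build that the mouse files go against, so aligner, counter and strand setting are uncertain. Exon length is another value that the authors deposited, per the file headers. Of the 55141 identifiers shared with GENCODE M21, 54821 had the same coordinates there.

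Counts were filtered with filterByExpr, which kept 15000 of 26620 genes with any count, scaled by TMM and tested with edgeR 4.0.16 (glmQLFit, robust, no covariate, R 4.3.3) with Benjamini-Hochberg adjustment at 0.05. Standard errors were taken from the log2 change over the root of its F statistic. The script was tested on simulated data. Pairs of libraries in a group differed by more than counting noise.

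The members and gene lists were chosen with earlier results of these data known, and lists are described by counts and medians. Named genes were all members, their neighbours, up to 4 genes per list with the smallest adjusted p, up to 4 largest called rises and falls among hosts by coordinates with at least 5 CPM, and the genes most like the members. Genes named as the few that fell or missed a call, Rcc1 and the other Snhg genes' values among them, were chosen after their values were seen. Replicate numbers paired the libraries: deviations from group means correlated at 0.569 to 0.611 for equal numbers and at -0.222 to -0.336 for others. Deviations cancel out within a group, so positive values for equal numbers force negative ones on average for the others. The pairing was seen in the data and is stated in no label. Alternatives were the replicate block, DESeq2 1.42.0, limma-voom 3.58.1, RLE factors, library size, no filter, 5 CPM in 3 libraries and omission of each library. Omission of a number from both groups and summing both Snhg4 identifiers were added after seeing the data.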

Additional observations from a re-analysis of the deposited data

How the results depend on the processing

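The 9 rises kept their direction under every alternative run and their call under all but the omission of a replicate number from both groups, where Snhg4 (log2 change 0.78 and 0.81 without numbers 1 and 2) and Snhg8 (0.73 without number 2) lost it. Snhg3 stayed lower in every fit, but its log2 change of -0.53 to -0.84 without single libraries passed the threshold only without CPC 2, and those of -0.56, -0.86 and -0.63 without numbers 1, 2 and 3 of both groups did not, so 0 to 1 members were called lower. Over all genes 1932 (without control 1) to 2613 (without control 3) were called higher when single libraries were left out. Omission of number 1 from both groups gave 928 higher and 1033 lower genes, and omission of number 2 gave 1736 and 1650. Protein-coding hosts called higher numbered 19 and 20 without numbers 1 and 2 of both groups, and those called lower 5 by DESeq2 and 6 with the replicate block, which called 1 other non-coding host lower. With the replicate block all 10 members kept their call (edgeR). In these fits fewer samples leave fewer degrees of freedom. Library size in place of TMM moved the median of all genes by 0.07 on the log2 scale and no member's call. Without exon length, 7 of the 10 hosts took another place in the control order. Snhg3, Snhg4 and Epb41l4aos rest on counts of 48 to 221 per library.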

Other observations

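The genes whose levels over the 6 libraries were most like the mean standardized log2 level of the 10 hosts were Lsm14a, an RNA-binding P-body gene, at Pearson r = 0.9991, Rpl4 at 0.9988, the RNA helicase gene Ddx27 at 0.9988, Rpl37 at 0.9987 and the glutathione synthesis gene Gclc at 0.9983. Of 10500 genes compared 9.52% had r over 0.95, since any gene that differs between the groups correlates, and the libraries are shared. Against that mean the hosts themselves had r of 0.914 to 0.999, except Snhg3 at -0.767. The mean contains each host, so a high r of a host is in part built in.

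Over all 1558 genes of snoRNA or scaRNA type, summed counts were 349, 472 and 309 in the controls against 651, 687 and 511 after CPC. These sums, not scaled for library size, were higher in each CPC library than in any control. In CPM the same held for 26.7% of tested genes. Within the hosts, Gm23201 inside Zfas1 had 13, 9 and 7 counts in the controls against 20, 19 and 11 after CPC, with overlapping libraries (edgeR adjusted p = 0.202). These counts are too few to set beside the host RNAs.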
